A study of Mus musculus with 24 samples.

Results

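The regional difference between colonic and ileal epithelium was measured in 3 KO mice 8 weeks after chimerism, from 6 of the series' 24 libraries, and set beside the same difference in 5 wild-type mice, from 10 libraries. The 6 KO libraries were the colon and the ileum of mice 49, 50 and 57, chosen by those labels alone, and the number in a sample's title was taken as the animal, so that each colon was paired with the ileum of its own mouse. KO mice were C57BL/6 chimeras taken 8 weeks after chimerism (n = 3). The wild-type mice, called WT below, were 2 irradiated C57BL/6 mice taken 8 weeks after chimerism (59 and 61) and 3 non-irradiated, untreated C57BL/6 mice (72, 73 and 75). The labels give an age of 8 to 14 weeks for all mice. All libraries came from cells sorted as CD45-negative and positive for a tomato reporter named after Villin, which bundles actin in microvilli. The sample labels say only KO. The series title names gut macrophages deficient in the IL-10 receptor α chain and an epithelial response to IL-22, so the deficiency named is not one of the epithelial cells sequenced, and Il10ra in these libraries (14.8 to 31.0 normalised reads in KO colon, 4.7 to 20.8 in WT colon) checks no label. Of 24421 genes, 19588 were tested, each reaching 10 normalised reads in 2 libraries or more.

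Ileal epithelium is specialised for the uptake of bile acids, fat and peptides, carries Paneth cells that secrete α-defensins, and in health makes much of the gut's Reg3 lectins. Colonic epithelium absorbs salt and water, is rich in goblet cells and keeps its position along the gut through transcription factors such as Cdx2 and the posterior Hox genes. IL-22, made by lymphoid cells, signals through Il22ra1 and Il10rb to STAT3 in epithelial cells and induces antimicrobial proteins, and loss of IL-10 sensing by macrophages leads to colitis in mice.

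Values are normalised reads, that is reads divided by a size factor of the library. A regional difference is colon minus ileum of the same mouse on the scale of log2(normalised reads + 1), which understates the change of genes with few reads, and is given with its standard error from 1 limma fit over all genes and all 24 libraries. Adjusted p-values are limma's with Benjamini-Hochberg adjustment over the 19588 genes, and a call is an adjusted p under 0.05. The 24 libraries held 8.32 to 18.7 M recovered reads (median 13.2 M). Where values are listed by sample, KO values are those of mice 49, 50 and 57 and WT values those of mice 59, 61, 72, 73 and 75, in that order. In bulk RNA, fewer cells of a type and less RNA per cell cannot be told apart.

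Reads in 1458 olfactory and vomeronasal receptor genes, which gut epithelium is not known to use, differed between the libraries. They amounted to 997, 968 and 701 per M reads in KO colon and to 266, 417 and 392 in KO ileum, against 208, 549, 202, 205 and 636 in WT colon and 156, 391, 188, 311 and 370 in WT ileum. The 3 KO colon libraries were the highest of these 16. Colon minus ileum of this measure was 1.32 ± 0.54 on the log2 scale in KO (SD, n = 3) and 0.24 ± 0.53 in WT (SD, n = 5), without overlap between the mice (exact permutation test, two-sided p = 0.0357, the smallest that 3 against 5 mice allow). The part of these reads in the results was not tested. Counts of list members that move by over 1.5 times, and by more than 1 gene, when the measure enters the fit as a covariate are given with both values, and that fit moves the median KO difference of all genes to -0.11.

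**Figure D1:**
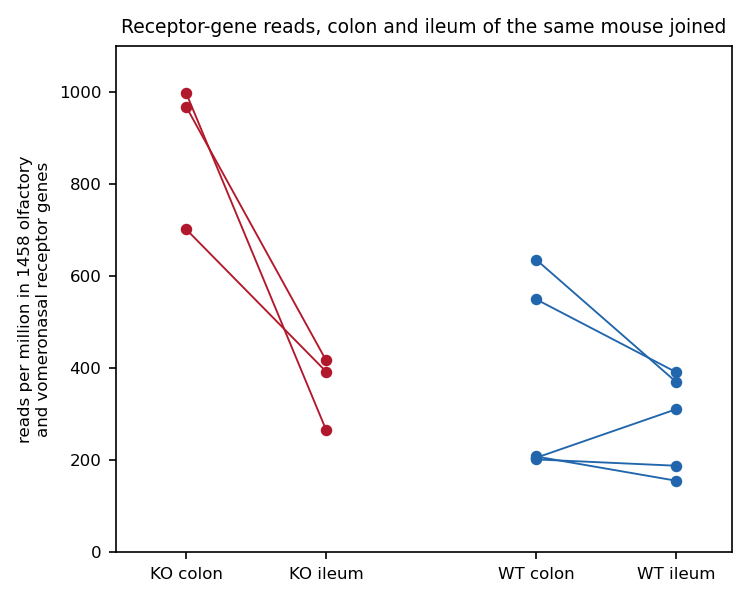
Reads per M reads assigned to 1458 olfactory and vomeronasal receptor genes (y axis) in the colon and ileum of each mouse, joined by a line, for 3 KO mice at 8 weeks (red) and 5 WT mice (blue). KO colon lies at 701 to 997 and KO ileum at 266 to 417, and WT colon lies at 202 to 636 and WT ileum at 156 to 391.

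In KO mice, 9827 of the 19588 genes (50.2%) differed between colon and ileum. Of these, 4855 were higher (24.8%) and 4972 lower in colon (25.4%), and 5384 differed at least 2-fold (27.5%). In WT mice 5615 genes differed (28.7%), 2656 higher (13.6%) and 2959 lower in colon (15.1%). Without the mouse as a block the KO count was 6269, and with receptor reads as a covariate it was 2337 (1262 higher and 1075 lower). It was 5893 without mouse 49 and 6209 without mouse 50. Among genes averaging 100 normalised reads or more, a filter chosen after seeing the data, 2307 were higher and 4213 lower in KO colon.

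The regional difference itself differed between KO and WT for 784 genes, more positive in KO for 354 (1.81%) and more negative for 430 (2.20%). By gene, 3892 WT differences were kept, being called with the same sign in KO, 1497 of them higher and 2395 lower in colon. Of these kept genes, 3695 had no called change in size. Of the 2647 WT differences of at least 2-fold (13.5%), 2071 were called with the same sign in KO and 207 were lost or reduced. In all, 310 WT differences were lost or reduced, meaning called in WT and smaller or turned round in KO with the change called, 210 of them genes that were higher in WT colon and 100 genes that were lower there. Of the 310, 163 were not called in KO and 83 were called there with the opposite sign. The other 64 were still called with the same sign and also count as kept. In KO, 557 differences were new or enlarged, of which 341 were not called in WT, 133 were larger than in WT and 83 had the opposite sign. These 83 genes count as lost and as new, and the 133 also count as kept.

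A further 5511 genes were called in KO and not in WT, and 1477 in WT and not in KO, without a called change in the difference, and these are not shown to differ. Across all 19588 genes the KO and the WT differences correlated at Pearson's r = 0.74 and Spearman's rho = 0.60, and across the 10870 genes averaging 100 normalised reads or more at 0.84 and 0.76. Genes are not independent replicates, so these values are descriptions. The count of 784 was 204 without the mouse block, 399 with the receptor covariate (305 positive and 94 negative), 209 without KO mouse 50 and 1949 without KO mouse 57. It was 466, 328 and 470 without WT mice 59, 72 and 73, and 130 with the 2 irradiated WT mice alone as WT.

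**Figure D2:**
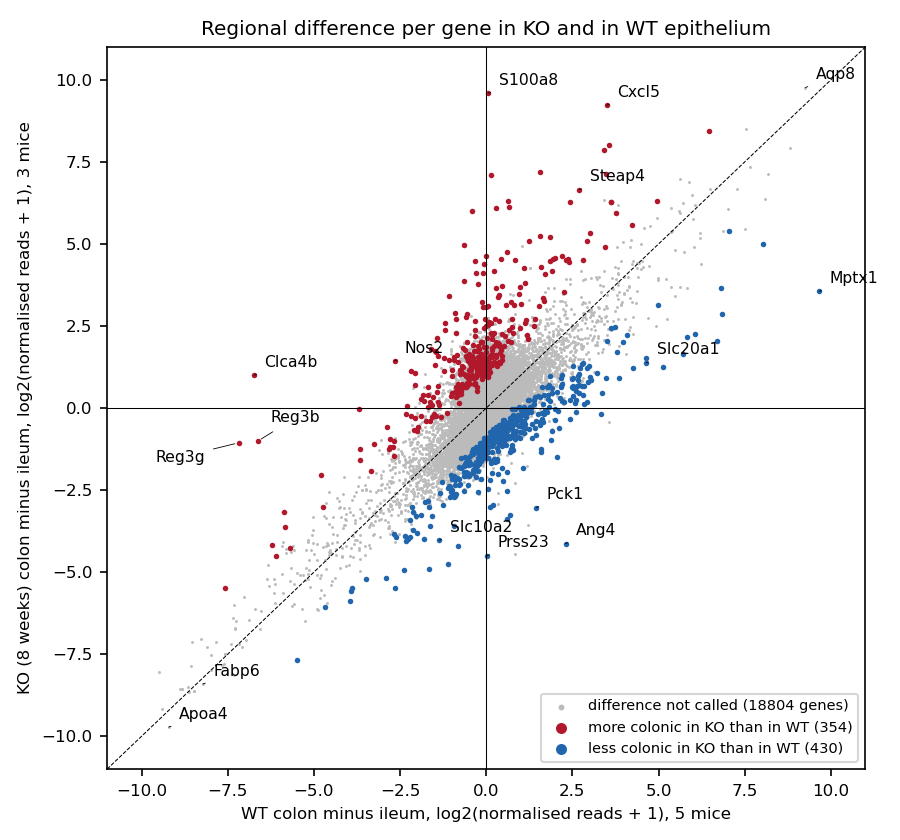
Colon minus ileum difference of each of 19588 genes on the log2(normalised reads + 1) scale in 3 KO mice at 8 weeks (y axis) against that in 5 WT mice (x axis), with genes whose difference differed between KO and WT in red (354, more positive in KO) and blue (430, more negative). Genes scatter about the dashed line of equal difference. The median size over all genes was 0.52 for the KO minus WT difference, 0.75 for the KO difference and 0.34 for the WT difference. Clca4b, Reg3b and Reg3g lie far left near a KO difference of 0, and Ang4, Pck1 and Prss23 lie below the line.

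Most factors that mark colon or ileum kept their side in KO mice. Of 28 transcription factors with regional expression, 10 were higher and 11 lower in KO colon, 15 were higher and 10 lower in WT colon, the difference became more negative for 2, and 19 of the WT calls were kept. For each list named here and below, the shares over all genes tested are 24.8% higher and 25.4% lower in KO colon, 13.6% and 15.1% in WT colon, 1.81% with a more positive and 2.20% with a more negative difference in KO. All lists were chosen with earlier results of these data known, so counts set beside these shares are descriptions and no test of enrichment. Over all lists together the difference changed for 67 members, 31 more positive and 36 more negative. With the 2 irradiated WT mice alone as WT it changed for 26, 16 more positive and 10 more negative. Of the 28, 5 were lower in KO colon and 0 changed with the receptor covariate, 0 changed without KO mouse 50 or the mouse block, and 4 changed without KO mouse 57. Their median difference was 0.03 in KO and 0.54 in WT, against 0.07 and -0.01 over all genes tested. The background depends on the level of expression. Among the 10870 genes averaging 100 normalised reads or more, 2307 were higher and 4213 lower in KO colon. The difference was more positive in KO for 235 of these genes and more negative for 437, and their medians were -0.33 in KO and -0.06 in WT. Hoxb13, the posterior Hox gene of the distal colon, had 224, 314 and 468 normalised reads in KO colon and 6.7, 1.1 and 0.9 in KO ileum, against 1374, 349, 986, 1234 and 397 in WT colon and 0.8, 3.1, 3.2, 16.4 and 3.7 in WT ileum. All 8 mice had more Hoxb13 in colon, and the difference of 6.68 ± 0.55 in KO and 7.28 ± 0.43 in WT did not pass the test of a change (adjusted p = 0.573). Hoxa13 differed by 5.99 in KO and 5.61 in WT.

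Gata4 and Gata5, factors of the small intestine, differed by -2.81 and -5.36 in KO, against -3.90 and -5.58 in WT, and so were lower in colon. The Gata4 difference did not pass the test of a change (adjusted p = 0.0584). The 2 factors whose difference changed were Hoxb9, at 0.66 ± 0.25 in KO and 2.17 ± 0.19 in WT (adjusted p of the change = 0.0121), and Cdx1, at -0.53 ± 0.20 in KO and 0.43 ± 0.16 in WT (adjusted p = 0.0445). Both calls were lost without KO mouse 50 and with the receptor covariate, and Cdx1 also without KO mouse 49 or any of WT mice 59, 61, 72 and 73.

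Over all genes tested, the largest positive KO difference was that of the water channel Aqp8 and the largest negative one that of the apolipoprotein Apoa4. Aqp8 had 5667, 8613 and 16236 normalised reads in KO colon and 8.0, 19.0 and 5.7 in KO ileum, against 11353, 9391, 17711, 15384 and 7469 in WT colon and 10.3, 10.1, 19.2, 58.2 and 15.7 in WT ileum, a difference of 9.76 ± 0.47 in KO and 9.26 ± 0.36 in WT (adjusted p of the change = 0.579). Apoa4, which is packed into chylomicrons, had 12.4, 36.6 and 14.8 in KO colon and 28403, 15207 and 11058 in KO ileum, against 15.6, 13.4, 52.2, 46.6 and 22.5 in WT colon and 43181, 8345, 19471, 15759 and 9419.8 in WT ileum. Colon and ileum were far apart for both genes in every one of the 8 mice. The proton pump subunit Atp12a (8.49 in KO and 7.54 in WT), carbonic anhydrase Car1 (7.14 in KO and 8.17 in WT) and Cyp2d34 (7.94 in KO and 8.83 in WT) were likewise higher in colon in both groups without a called change. Apoa1 (-9.18 in KO and -9.41 in WT), Apoc3 (-8.13 in KO and -7.32 in WT), the peptidase Anpep (-8.66 in KO and -8.62 in WT) and the ileal bile acid binding protein Fabp6 (-8.41 in KO and -8.22 in WT) were lower in colon in both groups, also without a called change.

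**Figure D3:**
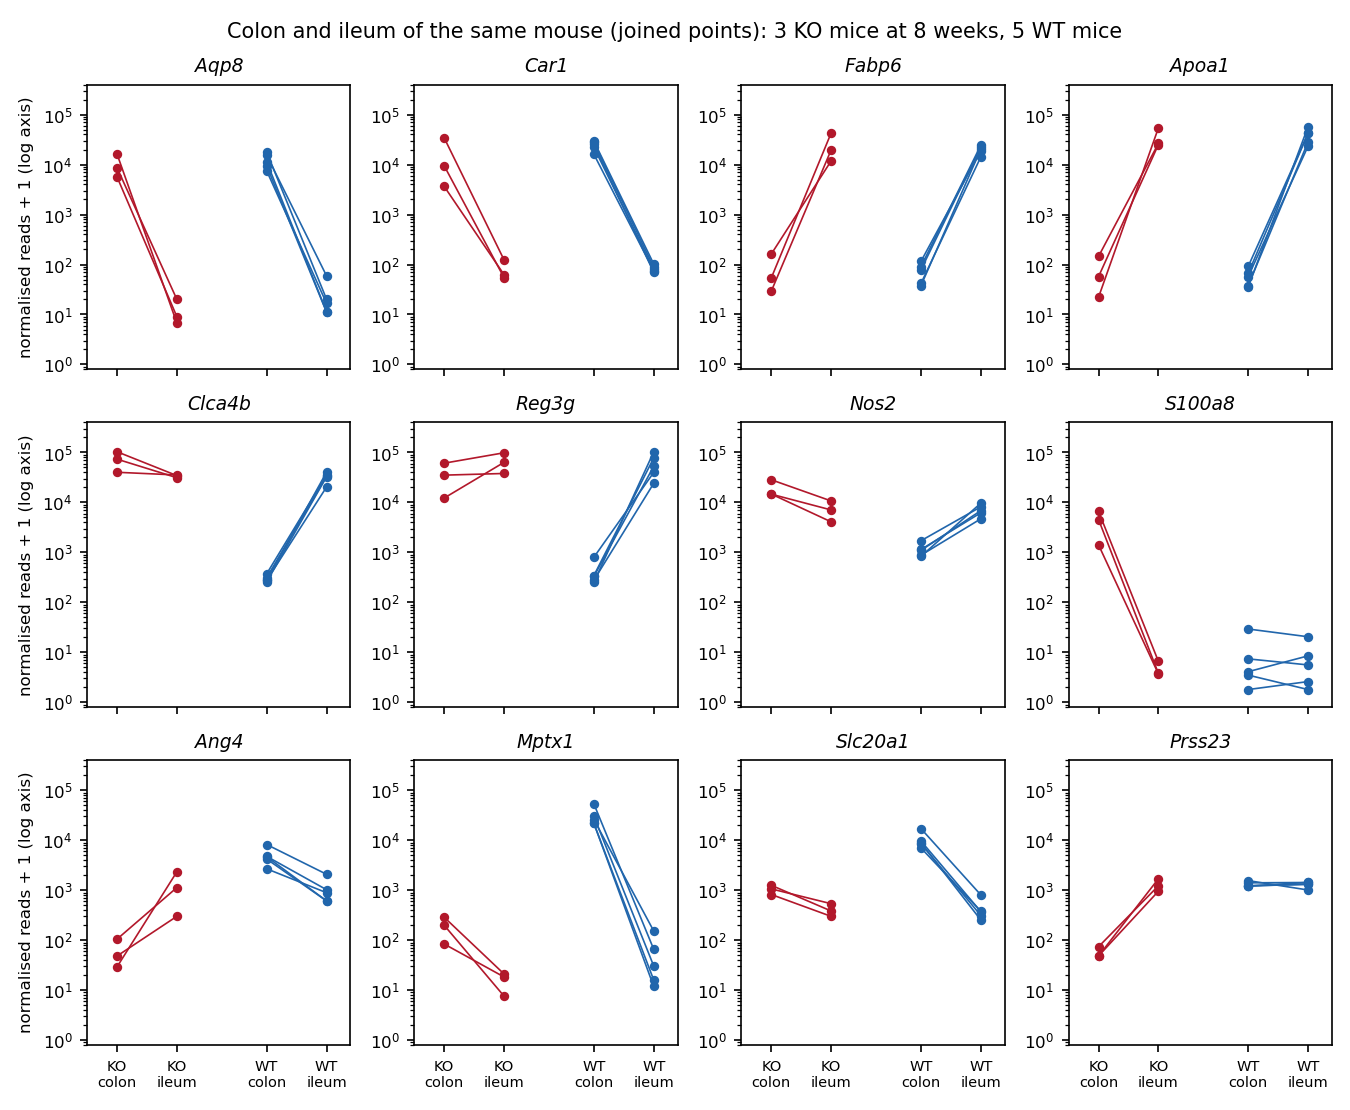
Normalised reads plus 1 (log axis) of 12 genes in the colon and ileum of each mouse, joined by a line, for 3 KO mice at 8 weeks (red) and 5 WT mice (blue). The lines of Aqp8, Car1, Fabp6 and Apoa1 have similar slopes in both groups. Clca4b, Reg3g and Nos2 are higher in KO colon than in WT colon, S100a8 is high in KO colon, and Ang4, Mptx1, Slc20a1 and Prss23 are lower in KO colon than in WT colon.

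Genes of ileal digestion and uptake were lower in colon in KO as in WT mice. All 24 genes of brush border digestion and nutrient uptake were lower in KO colon, and 23 in WT colon, with medians of -4.49 in KO and -4.53 in WT, and the difference changed for 2. Without the mouse block the difference changed for 0 of them. The aminopeptidase Enpep differed by -6.47 in KO and -6.89 in WT. Of 19 genes of lipid absorption, 16 were lower and 2 higher in colon in KO as in WT. The cholesterol transporter Npc1l1 differed by -7.14 in KO and -7.86 in WT, and Mttp, which loads lipid onto apolipoprotein B, by -6.41 and -7.36. In the Paneth cell list, 13 of 15 genes were lower and 1 higher in KO colon, with medians of -6.73 in KO and -6.58 in WT, and the difference increased for Mmp7 and fell for Ang4 and Itln1, described below. Without the mouse block the difference increased for 0 and fell for 1 of the 15. The α-defensin symbols Defa2 and Defa20 held the same value in every library and are 1 measurement, 225 to 3783 in KO ileum and 926 to 4175 in WT ileum, with at most 3.6 in KO colon. Near-identical defensin copies share reads, so their single values are uncertain.

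For some ileal genes the difference between the regions became larger. Slc10a2, the apical transporter that takes up bile acids in the ileum, had 147, 128 and 182 normalised reads in KO colon and 2352, 1541 and 4178 in KO ileum, against 1076, 1013, 789, 1225 and 1529 in WT colon and 4042, 2731, 2732, 1868 and 3255 in WT ileum. KO colon lay below WT colon in every mouse and the ilea overlapped. The regional difference was -4.03 ± 0.26 in KO and -1.36 ± 0.20 in WT (change of -2.66 ± 0.33, adjusted p = 0.0001). Its partner at the basolateral side, Slc51a, behaved likewise, with 66.6 to 87.8 in KO colon against 233 to 501 in WT colon (change of -1.92, adjusted p = 0.00538, not called with the receptor covariate). Of the 9 bile acid genes tested, 6 were lower and 1 higher in colon in KO as in WT, and these 2 changed. Without the mouse block 1 of the 9 changed. The fatty acid binding protein Fabp2 (change of -1.64), colipase Clps (-3.11) and the metalloprotease Mep1a (-1.58) also became more ileal. Lactase, Lct, moved the other way, at -5.49 in KO and -7.59 in WT (adjusted p of the change = 0.0332), with 6316, 3898 and 1142 normalised reads in KO ileum and 8821, 4254, 12942, 8985 and 13203 in WT ileum. The calls for Fabp2, Mep1a and Lct were lost without KO mouse 50, without WT mouse 72 or 73 and with the receptor covariate, those for Fabp2 and Mep1a also without KO mouse 49, for Lct also without KO mouse 57, for Lct and Mep1a also without WT mouse 59, and for Mep1a also without WT mouse 61. Without the mouse block none of the changes of Fabp2, Clps, Mep1a and Lct was called.

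Among the genes named by rule, the WT differences that shrank most from the ileal side were those of Clca4b, Reg3g and Reg3b. WT mice expressed these genes in ileum at far higher levels than in colon. Reg3g, a lectin that kills Gram-positive bacteria, had 12241, 35146 and 60988 normalised reads in KO colon and 63412, 37951 and 98508 in KO ileum, against 252, 342, 329, 277 and 796 in WT colon and 102594, 77437, 52767, 24067 and 39832 in WT ileum. Every KO colon lay above every WT colon, while the ilea of both groups overlapped. The WT difference of -7.18 ± 0.47 was -1.06 ± 0.60 in KO, which was not called (adjusted p = 0.145), and the change was 6.12 ± 0.76 (adjusted p = 0.000102). Reg3b, its neighbour and relative, had 25180.1, 71601 and 149373 in KO colon and 133115, 80557 and 204815 in KO ileum, against 701, 950.1, 758, 929.6 and 3606 in WT colon and 203994, 152385, 105409, 54467 and 90888 in WT ileum. In all 3 KO mice colon had less Reg3b than ileum, with a smaller gap than in any WT mouse, and the change was 5.62 ± 0.78 (adjusted p = 0.000309). With the receptor covariate the KO differences of both genes changed sign, to 0.71 for Reg3g and 0.53 for Reg3b, and were not called.

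Clca4b, a member of the calcium-activated chloride channel regulator family, had the largest change of the 3. It had 40109, 73441 and 103359.7 normalised reads in KO colon and 35428, 31224 and 34398 in KO ileum, against 372, 256, 312, 275 and 276 in WT colon and 35156, 32656, 33272, 20342 and 40320.0 in WT ileum. All 3 KO mice had more in colon and all 5 WT mice far more in ileum. The difference was 1.00 ± 0.40 in KO (adjusted p = 0.0427) and -6.73 ± 0.31 in WT, a change of 7.73 ± 0.50 (adjusted p = 6.51e-08). The KO call by itself was lost without the mouse block and when KO mouse 50 or 57, or WT mouse 59, 61 or 72, was left out, and the call of the change was kept in these fits. Its neighbour Clca4a had 13282 to 20419.6 in KO colon and 13069 to 23069 in KO ileum, against 13114 to 20729.6 in WT colon and 15603 to 29272 in WT ileum, and no difference was called. Reads common to both copies may have been split by the counting. Nos2, the inducible nitric oxide synthase, had 14607, 14672 and 28349 in KO colon and 7059, 4078 and 10686 in KO ileum, against 833, 879, 1712, 1096 and 1142 in WT colon and 9710.5, 4706, 8178, 6867 and 6216 in WT ileum. Its difference was positive in all 3 KO mice and negative in all 5 WT mice (1.43 ± 0.30 and -2.66 ± 0.23, adjusted p of the change = 5.17e-06).

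The bases before the start are shown for Reg3b, Reg3g and Clca4b, whose WT ileal bias shrank, and for Steap4, a metalloreductase described below whose colonic bias grew, all picked with their values known. The windows are the 250 bases before the RefSeq gene start on GRCm38.p6, a build other than the mm9 used for counting, and capitals mark the STAT-type motif TTCNNNGAA, which reads the same on both strands. They lie at chr6:78370635-78370884 on the plus strand for Reg3b, chr6:78468875-78469124 on the minus strand for Reg3g, chr3:144932530-144932779 on the minus strand for Clca4b and chr5:7960222-7960471 on the plus strand for Steap4.
Reg3b: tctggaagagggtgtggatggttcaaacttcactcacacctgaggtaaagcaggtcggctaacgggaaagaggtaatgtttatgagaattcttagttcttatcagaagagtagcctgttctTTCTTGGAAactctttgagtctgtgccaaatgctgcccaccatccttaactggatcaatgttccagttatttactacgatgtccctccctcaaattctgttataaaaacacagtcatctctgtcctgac
Reg3g: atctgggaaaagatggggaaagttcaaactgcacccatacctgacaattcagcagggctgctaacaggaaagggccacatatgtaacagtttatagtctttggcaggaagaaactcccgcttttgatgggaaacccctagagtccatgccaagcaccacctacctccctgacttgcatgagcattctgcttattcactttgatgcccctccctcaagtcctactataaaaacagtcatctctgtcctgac
Clca4b: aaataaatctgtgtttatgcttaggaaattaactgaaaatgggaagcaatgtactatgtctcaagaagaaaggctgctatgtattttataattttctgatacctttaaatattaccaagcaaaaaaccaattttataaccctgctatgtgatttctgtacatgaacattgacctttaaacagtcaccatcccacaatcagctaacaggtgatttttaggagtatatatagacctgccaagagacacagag
Steap4: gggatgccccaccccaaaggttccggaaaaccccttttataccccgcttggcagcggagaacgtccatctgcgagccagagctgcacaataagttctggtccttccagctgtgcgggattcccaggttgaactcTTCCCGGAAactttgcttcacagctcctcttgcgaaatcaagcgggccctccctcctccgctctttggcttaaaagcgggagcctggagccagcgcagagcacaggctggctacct
Reg3b held 1 match (TTCTTGGAA, first base at -129) and Steap4 held 1 (TTCCCGGAA, first base at -116), while Reg3g and Clca4b held none in these windows. Of 32851 such windows in the RefSeq table, 2306 (7.02%) held the motif. A match is a description of letters and no binding was measured.

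Across the 26 genes of the antimicrobial and IL-22 response list, 14 were higher and 5 lower in KO colon than in KO ileum, whereas in WT 6 were higher and 11 lower. The difference was more positive in KO for 14 and more negative for 0 of 26, against 1.81% positive and 2.20% negative over all genes tested. This list too was chosen with earlier results of these data known, so the count describes its members only. The list's median difference was 1.20 in KO and -0.36 in WT, against 0.07 and -0.01 over all genes. In KO colon 2 were lower with the receptor covariate and 3 without KO mouse 49. Without the mouse block 7 were more positive, and over the fits that left out 1 mouse 10 to 14 were. Besides Reg3b, Reg3g, Clca4b and Nos2, the ileal bias shrank for Reg3a (-3.63 in KO and -5.84 in WT), Reg1 (-2.05 in KO and -4.80 in WT), the matrix protease Mmp7 that activates defensins (-3.16 in KO and -5.87 in WT), the kinase Pim1 (-0.18 in KO and -2.33 in WT) and Tifa, an adaptor of innate sensing (-0.71 in KO and -2.01 in WT). The receptor subunits Il22ra1 (-0.97 in KO and -0.74 in WT) and Il10rb (-0.35 in KO and -0.31 in WT) did not change by the test, and Socs3, a feedback inhibitor of STAT3, was at -1.29 in KO and -3.10 in WT without a called change (adjusted p = 0.123).

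Other members of the same list became more colonic in KO, most of them without a called difference in WT. S100a8, a calcium-binding subunit of calprotectin, had 1416, 6615 and 4549 normalised reads in KO colon and 2.7, 5.6 and 2.8 in KO ileum, against 0.8, 28.3, 2.5, 3.1 and 6.4 in WT colon and 1.6, 19.5, 0.8, 7.5 and 4.6 in WT ileum. The 3 KO colons stood apart from all 13 other libraries. The difference was 9.59 ± 0.98 in KO and 0.06 ± 0.76 in WT (adjusted p of the change = 0.00017). Its partner S100a9 had 463, 1366 and 1287 in KO colon against 0, 34.2, 2.5, 4.7 and 9.6 in WT colon, and was low in the ilea of both groups. The siderophore-binding protein Lcn2 (4.10 in KO and -0.11 in WT) and the glycoprotein Lrg1 (4.98 in KO and -0.65 in WT) also became more colonic, with changes of 4.21 and 5.63. Steap4, which reduces iron and copper, had 3245, 2282 and 4339.8 in KO colon and 24.0, 39.1 and 30.4 in KO ileum, against 143, 145, 119.8, 188 and 172 in WT colon and 13.5, 30.4, 19.2, 19.4 and 37.8 in WT ileum, so that a colonic bias present in all 5 WT mice was larger in KO (change of 3.96 ± 0.38, adjusted p = 5.79e-06).

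Some chemokines, among them those that attract neutrophils, became more colonic in KO. Of 14 chemokines tested, 8 were higher and 2 lower in KO colon, against 3 and 2 in WT, and the difference was more positive in KO for 6 (1.81% over all genes) and more negative for 0, which was 3 and 0 without KO mouse 50 and 2 and 0 with the irradiated WT mice alone. Cxcl5 had 1483, 2259 and 1439 normalised reads in KO colon and 2.7, 1.1 and 1.9 in KO ileum, against 27.2, 26.8, 42.0, 6.2 and 17.7 in WT colon and 2.4, 1.6, 0, 0 and 1.8 in WT ileum. KO ileum held 2, 1 and 2 reads and KO colon was above every other library, and the fitted change was 5.73 ± 1.11 (adjusted p = 0.00648, not called without KO mouse 50). Cxcl2 had 207, 1382 and 439 in KO colon against 7.4, 5.2, 3.8, 4.7 and 4.8 in WT colon. Cxcl1 (6.28 in KO and 2.43 in WT), Cxcl3 (6.01 in KO and -0.41 in WT), Cxcl9 (3.46 in KO and 0.95 in WT) and Cxcl11 (0.21 in KO and -1.81 in WT) also changed, the last by losing an ileal bias. Ccl25, the ileal chemokine that draws lymphocytes to the small intestine, kept its ileal bias (-4.50 in KO and -4.20 in WT).

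Because S100a8 and S100a9 are also made by neutrophils, the marker lists of other cells are given here. Of 14 myeloid markers tested, 3 were higher and 1 lower in KO colon, against 2 and 1 in WT, and the difference changed for 0 (5 at an unadjusted p under 0.05, 0 by edgeR and 1 by DESeq2). With TMM scaling, a pseudocount of 10 or edgeR 6 of the 14 were higher in KO colon, and without WT mouse 73 5 were. Their summed level was 1737 to 2427 normalised reads in KO colon and 545 to 563 in KO ileum, against 1136 to 2725 in WT colon and 533 to 715 in WT ileum, and most of the colon sums was Ly6g, at 987 to 1618 in KO colon and 624 to 2302 in WT colon. The neutrophil gene Elane did not pass the filter on low values. Of 15 leukocyte markers, the immunoglobulin joining chain Jchain alone changed (1.57 in KO and -1.41 in WT, adjusted p of the change = 0.0221, not called without the mouse block, without KO mouse 49 or 50, without WT mouse 72 or 73 or with the receptor covariate), with 67.1 to 95.8 in KO colon and 4.7 to 28.9 in WT colon. Without KO mouse 57 the difference was more positive for 3 leukocyte markers, and 5 were higher in KO colon. The leukocyte sums were 490 to 1093 in KO colon and 379 to 2233 in KO ileum, against 348 to 627 in WT colon and 498 to 683 in WT ileum. Of 15 stromal and muscle markers, 8 were higher and 1 lower in KO colon and 2 higher in WT colon, with 0 changes called (3 at an unadjusted p under 0.05, 0 by edgeR and 0 by DESeq2). With the receptor covariate 0 of these 15 were called in KO, and without KO mouse 49 or 50 3 and 2 were higher. Without the mouse block 3 were higher and 0 lower in KO colon. The 10 epithelial markers summed to 91532 to 235842 in KO colon and 142478 to 213456 in KO ileum, against 88601 to 168622 in WT colon and 134934 to 239237 in WT ileum. The part of admixed cells in the results was not tested.

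Among genes of colonic absorption the difference fell for some in KO and most stayed colonic, in a list made of colonic genes. Of 22 colonocyte transport genes, 18 were higher and 2 lower in KO colon, against 19 and 0 in WT, and the difference fell for 7 (2.20% over all genes) and increased for 0. The list's median was 1.65 in KO and 2.87 in WT. Slc20a1, a phosphate transporter, had 820.0, 1253 and 1063 normalised reads in KO colon and 299, 383 and 537 in KO ileum, against 17067, 7008, 8532, 8861 and 9650.4 in WT colon and 804, 379, 311, 252 and 371 in WT ileum. KO and WT ilea overlapped and the colons did not. The difference was 1.38 ± 0.25 in KO and 4.64 ± 0.19 in WT (change of -3.26 ± 0.32, adjusted p = 6.01e-06). The sugar phosphate exchanger Slc37a2 had 222, 169 and 114 in KO colon against 4498, 2014, 2652, 5845 and 1095 in WT colon (change of -3.81 ± 0.59). The chloride-bicarbonate exchanger Slc26a3 (1.28 in KO and 2.99 in WT) and the carbonic anhydrases Car2 (5.41 in KO and 7.05 in WT) and Car4 (2.22 in KO and 4.09 in WT) kept a smaller colonic bias. The kinase Sgk1 (-1.30 in KO and 0.33 in WT) and the potassium channel Kcnn4 (-1.35 in KO and -0.30 in WT) became lower in KO colon than in KO ileum. With the receptor covariate 2 of the 22 differences fell and 1 increased, and without the mouse block 2 fell. Leaving out KO mouse 49 or 50, or WT mouse 59 or 73, gave 4 that fell, and leaving out WT mouse 72 gave 3.

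Secreted defence genes of the colon held the 2 largest negative called changes of all genes. Mptx1, a pentraxin of the mucosa, had 83.0, 287 and 198 normalised reads in KO colon and 17.4, 20.1 and 6.6 in KO ileum, against 21738, 21974, 53568, 25996 and 30330.1 in WT colon and 15.0, 10.9, 64.9, 152 and 29.5 in WT ileum. Every KO colon was below every WT colon by far more than the spread within either group, and the change was -6.10 ± 0.85 (adjusted p = 0.00033). Ang4, an angiogenin with antimicrobial activity, had 104, 28.3 and 47.3 in KO colon and 1132, 2343 and 300.1 in KO ileum, against 4765, 2686, 8222, 4218 and 4684 in WT colon and 1024, 892, 2088, 611 and 612 in WT ileum. It was higher in ileum in all 3 KO mice and higher in colon in all 5 WT mice (-4.13 ± 0.51 and 2.30 ± 0.40, adjusted p of the change = 8.75e-06). Of the 12 genes of this list the difference fell for 5 and increased for 1, with Sycn (3.65 in KO and 6.80 in WT), Fcgbp (-2.16 in KO and -0.14 in WT) and the intelectin Itln1 (-6.06 in KO and -4.68 in WT) among those that fell and Wfdc18 (5.10 in KO and 2.93 in WT) the one that increased. The resistin-like Retnlb stayed colonic without a called change (6.38 in KO and 8.08 in WT). Under the receptor covariate 2 fell and 0 increased, and 4 of the 12 were higher in KO colon, against 7 without it. The number that fell was 2 without KO mouse 49 or 50 or WT mouse 59, 72 or 73, and 3 without WT mouse 61 or 75. Without the mouse block 2 fell and 0 increased.

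Among 15 goblet cell genes, 4 were higher and 2 lower in KO colon, against 8 and 0 in WT, so that 40.0% of the list was called in KO, below the 50.2% over all genes. The difference fell for 3, for 0 without KO mouse 50 or with irradiated WT mice alone and for 5 without KO mouse 57. The covariate fit gave 1 that fell, 1 that increased and 0 lower in KO colon. Clca1, a mucus-processing protease, had 42597, 13678 and 16043 normalised reads in KO colon and 38176, 39486 and 27116 in KO ileum, against 141589, 62399.5, 184400.5, 152016 and 115798 in WT colon and 39053, 28009.5, 41325, 23264 and 36773 in WT ileum, so that 1 of 3 KO mice and all 5 WT mice had more in colon (change of -2.62 ± 0.57, adjusted p = 0.016, not called without KO mouse 50 or with the receptor covariate). The kallikrein Klk1 was at 0.87 in KO and 3.05 in WT, a change not called without KO mouse 50. Of 16 enteroendocrine genes, 13 were lower and 1 higher in KO colon, against 10 and 2 in WT, and the difference fell for 6 and increased for 1, which was 2 and 1 with the receptor covariate or without KO mouse 50. Without the mouse block the difference fell for 3 and increased for 1. With the covariate 8 were lower in KO colon. Chromogranin A, Chga, had 97.9, 47.5 and 45.4 in KO colon and 467, 208 and 236 in KO ileum, against 427, 574, 619, 948 and 743 in WT colon and 579, 295, 765, 441 and 329 in WT ileum (change of -2.73 ± 0.41, adjusted p = 0.000639). Peptide YY, Pyy (-4.20 in KO and -0.82 in WT), the colonic hormone Insl5 (0.91 in KO and 3.84 in WT), neurotensin, Nts (-5.18 in KO and -2.92 in WT), and secretin, Sct (-3.99 in KO and -1.80 in WT), also became less colonic. Tac1, which encodes substance P, became more colonic, with 227, 688 and 636 in KO colon against 33.7, 38.7, 63.7, 46.6 and 63.5 in WT colon (change of 3.58 ± 0.49, adjusted p = 0.000258).

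Further large negative changes were in metabolic and secreted genes. Prss23, a serine protease, had 73.1, 47.5 and 47.3 normalised reads in KO colon and 1227, 956 and 1697 in KO ileum, against 1214, 1229, 1213, 1558 and 1407 in WT colon and 1335, 1304, 1436, 1011 and 1429 in WT ileum. WT mice thus showed no called difference (0.03 ± 0.28) and KO mice one of -4.50 ± 0.36 (adjusted p of the change = 7.68e-06). Pck1, the gluconeogenic phosphoenolpyruvate carboxykinase, had 225, 114 and 216 in KO colon and 1327, 1769.8 and 1321 in KO ileum, against 1784, 752, 1802, 1589 and 787 in WT colon and 1443, 193, 339, 747 and 276 in WT ileum, and was higher in ileum in all 3 KO mice and in colon in all 5 WT mice (change of -4.49 ± 0.42, adjusted p = 5.43e-06). The manganese exporter Slc30a10 (-3.37 in KO and 0.59 in WT) was likewise called lower in KO colon and not called in WT. The sulfotransferase Sult1a1 (2.06 in KO and 6.71 in WT), the growth factor Nov (2.86 in KO and 6.85 in WT), the ephrin Efna3 (1.26 in KO and 5.13 in WT) and the oxidase Hao2 (2.15 in KO and 5.81 in WT) kept a smaller colonic bias, where the change of Nov was not called without KO mouse 50 or with the receptor covariate.

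Of the genes that became more colonic, Plet1 had 17757 to 41318 normalised reads in KO colon against 695 to 1764 in WT colon, a regional difference of 8.01 in KO and 3.55 in WT. Plet1os, its antisense partner, changed alike (7.86 in KO and 3.40 in WT), and since no source used here says whether the counting used strand, the pair cannot be told apart. Annexin A1, Anxa1 (8.45 in KO and 6.45 in WT), was colonic in WT and more so in KO. The protease inhibitor Slpi (7.19 in KO and 1.56 in WT) became more colonic, where the WT value was 4.78 in mouse 59 and 0.51, 0.55, 0.76 and 1.21 in the other WT mice. Its change was 5.63 ± 0.89, not called with the receptor covariate or with irradiated WT mice alone. The carboxylesterase Ces2f (6.13 in KO and 0.67 in WT) gained a colonic bias as well.

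Metabolic lists moved in both directions. Of 30 xenobiotic and retinoid genes, 5 were higher and 15 lower in KO colon, against 6 and 15 in WT, and the difference increased for 5 and fell for 7, which was 2 and 2 without KO mouse 50, 2 and 3 without WT mouse 72 and 3 and 4 with the receptor covariate, under which 3 were higher in KO colon. Without the mouse block 2 increased and 3 fell, and without KO mouse 49 or WT mouse 59 or 73 3 increased. The share higher in KO colon lay below and the share lower above those over all genes. The retinol dehydrogenase Dhrs9 increased (5.33 in KO and 3.00 in WT), as did Ces2f, Cyp2j6, Cyp2c66 and Cyp3a11, and Cyp4b1 (-4.90 in KO and -1.65 in WT), Cyp3a13, Ces1d, Ces1f, Ces2c, Ugt2b5 and Sult1a1 fell. Of 18 genes of fatty acid oxidation and ketogenesis, 4 were higher and 9 lower in KO colon, against 5 and 4 in WT. In KO colon 3 were higher and 3 lower with the receptor covariate, and without KO mouse 49 5 and 5. Without the mouse block 4 were higher and 5 lower there. Their median was -0.43 in KO and -0.07 in WT, and with the receptor covariate 0.21 and 0.06. The nuclear receptor Ppara alone changed (-1.87 in KO and -0.39 in WT, adjusted p = 0.00297). Without KO mouse 57 3 genes of this list changed, and without the mouse block 0 did. Pparg stayed colonic at 3.00 in KO and 3.04 in WT. Of 11 oxidase genes, 7 were higher and 1 lower in KO colon, against 2 and 3 in WT, and 3 and 0 in KO without mouse 50 and 4 and 1 without mouse 57. Nox1, a superoxide-making oxidase of colonocytes, changed besides Nos2 (2.69 in KO and 1.16 in WT, adjusted p = 0.0176, not called without KO mouse 49 or with the receptor covariate). Without the mouse block 1 of the 11 oxidase genes changed.

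In the remaining lists few or no changes were called. Of 26 interferon response genes, 21 were higher and 0 lower in colon in KO as in WT, with Ifit2 more colonic in KO (5.96 in KO and 3.76 in WT) and Irf7 less (0.48 in KO and 2.04 in WT, not called without the mouse block, without KO mouse 49 or 50, without WT mouse 72 or with the receptor covariate, under which 4 genes were called more colonic). Without WT mouse 73 3 were. Of 20 cell cycle genes, 18 were lower in colon in both groups, and of 12 stem cell genes 7 in KO and 6 in WT, with 0 changes called in either list (4 and 5 at an unadjusted p under 0.05, 0 by edgeR in both, 2 in each by DESeq2). Olfm4, a marker of small intestinal crypt base cells, was at -5.75 in KO and -7.02 in WT (adjusted p of the change = 0.0507). Of 11 tuft cell genes 7 were lower in KO colon and 9 in WT colon, and of 11 claudins 2 were higher and 2 lower in KO colon, against 3 and 2 in WT, with 0 changes called in both lists (1 and 2 at an unadjusted p under 0.05, 0 by edgeR in both, 1 in each by DESeq2). Of the 11 tuft cell genes, 1 was lower in KO colon and 8 in WT colon with the receptor covariate. Without KO mouse 57 2 changes were called among claudins, with 4 lower in KO colon, and 2 among cell cycle genes. Of 15 antigen presentation genes, 1 was higher and 1 lower in KO colon, against 1 and 8 in WT, with 0 changes called by limma, 2 by edgeR, 1 by DESeq2 and 5 at an unadjusted p under 0.05. With the receptor covariate 10 of these 15 were called higher in KO colon and 10 changes were called, all positive, and without WT mouse 73 3 changes were called.

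**Figure D4:**
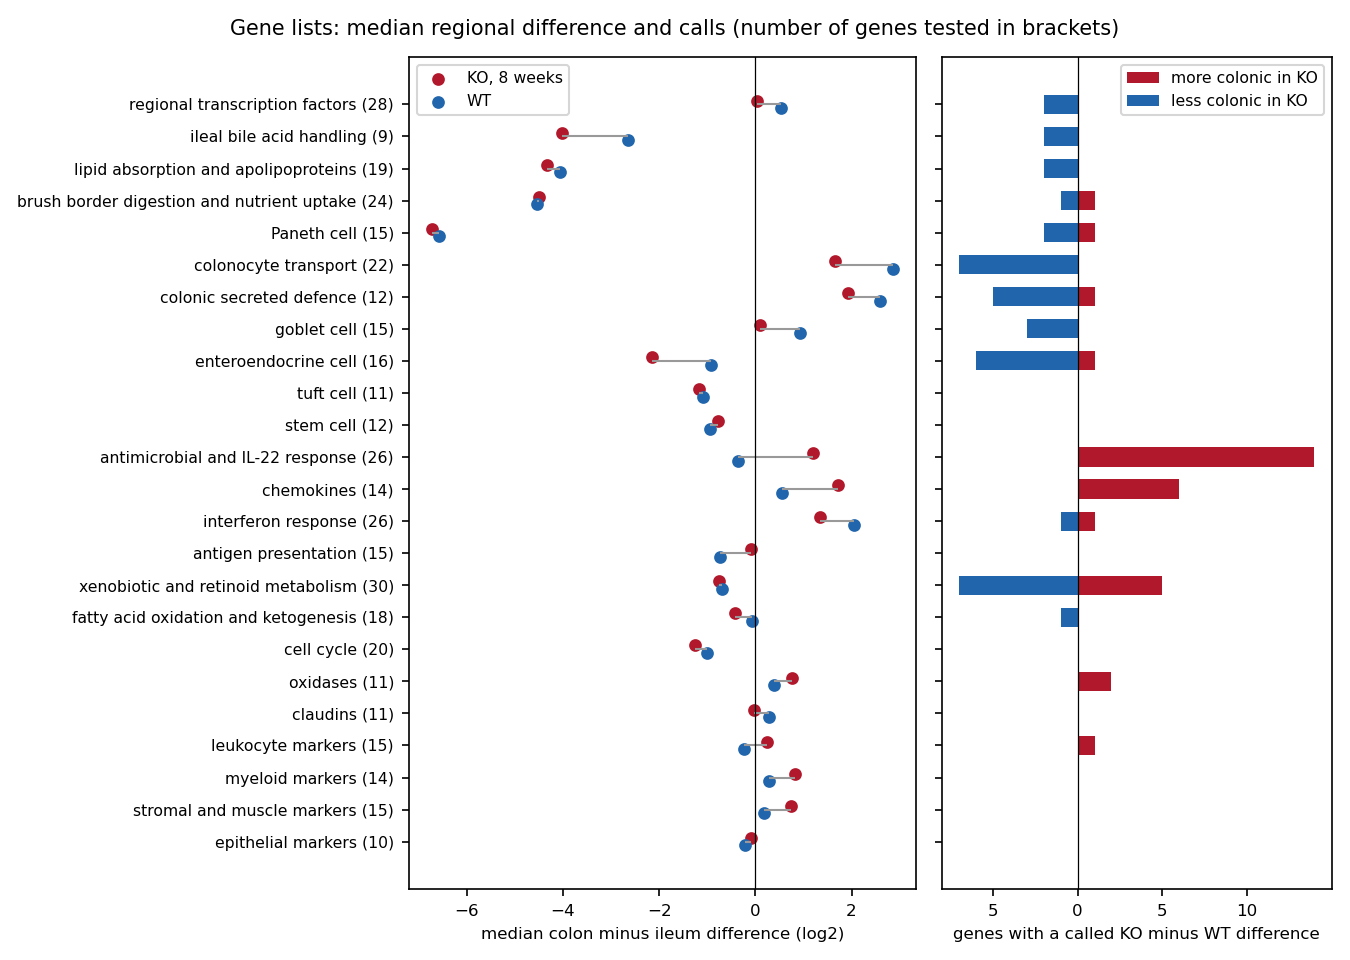
Median colon minus ileum difference of each of 24 gene lists in KO (red, upper dot) and WT (blue, lower dot) on the left (x axis in log2), and on the right the number of genes in each list whose difference was called more positive (red) or more negative (blue) in KO than in WT. The antimicrobial and IL-22 response list has 14 positive and 0 negative calls, and colonocyte transport has 0 positive and 7 negative calls.

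KO and WT were then compared within each tissue, in a fit without the mouse term. Between KO and WT colon 3624 of 19588 genes differed (18.5%), and between KO and WT ileum 0 by limma (0.00%) and 0 by edgeR, with 611 at an unadjusted p under 0.05. The colon count was 688 to 7422 over the fits that left out 1 mouse, lowest without KO mouse 50 and highest without WT mouse 75, 5232 without WT mouse 61 and 1144 to 1212 without KO mouse 49 or WT mouse 59, 72 or 73. It was 1196 with the receptor covariate, 1846 by edgeR, 393 with the irradiated WT mice alone and 1124 with the non-irradiated ones alone. For the 784 genes whose regional difference changed, the median size of the KO minus WT value was 1.39 in colon and 0.21 in ileum on the log2 scale, against 0.55 and 0.19 over all genes tested. Of these 784, 711 were called in colon, 307 higher and 404 lower in KO, and 0 in ileum, and without KO mouse 50 391 were called in colon. These within-tissue values are parts of the regional difference and are no independent evidence of it. In ileum, Reg3g (0.23), Clca4b (0.09), Slc20a1 (0.02), Ang4 (-0.01) and Prss23 (-0.04) had KO minus WT values near 0, whereas Pck1 was at 1.68 in ileum and -2.81 in colon, without a call in ileum. With the receptor covariate 300 of the 784 were called in colon and 1 in ileum.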

How the data were processed

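RNA was measured in sorted intestinal epithelial cells of 12 mice, colon and ileum each, giving 24 libraries. Per the labels' protocols, total RNA was depleted of ribosomal RNA and read single-end, while the molecule label reads polyA RNA. Per the submitters' processing notes, bcl2fastq, HISAT 0.1.6, HOMER and the mm9 build were used, with roles and order not given in the sources used here. The deposited table holds signal values, that is reads divided by a size factor of each library, to 1 decimal, for 24421 genes. Whole reads were recovered for 23 libraries, with 100.0% of low values whole within a tolerance of 0.1 read, and gave 8.32 to 18.7 M reads per library. For mouse 118 of the KO group at 2 weeks they could not be recovered in ileum, so that mouse was left out of the count tests.

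The main test was limma 3.58.1 in R 4.3.3 on log2(value + 1), for 19588 genes reaching 10 normalised reads in 2 libraries or more, with a term for each mouse and a colon minus ileum coefficient for the KO mice at 8 weeks, the KO mice at 2 weeks and the 5 WT mice. All 24 libraries entered, so that the groups share 1 estimate of the spread, and the 2-week mice serve only there. Calls are Benjamini-Hochberg adjusted p under 0.05 over all genes. The mouse was kept as a block because the titles give colon and ileum of an animal the same number. Across genes, the departure of each colon from its group mean correlated with that of the ileum of the same mouse at -0.36, 0.46 and 0.05 for KO mice 49, 50 and 57 and at -0.13 to 0.64 for the WT mice. KO against WT within a tissue used the same fit without the mouse term.

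Alternatives were no mouse block, other filters, pseudocounts of 0.5 and 10, quantile and TMM scaling, other WT sets, fewer groups in the fit, a receptor-read covariate, edgeR 4.0.16 and DESeq2 1.42.0 on the recovered reads, and leaving out each mouse. edgeR called 9749 genes in KO, 5795 in WT and 714 for the difference between them. Before it was used, the test script recovered changes put into the KO colon of simulated data, with the share recovered not given here. Those data gave each mouse an effect shared by its colon and ileum. They held no rise of receptor reads in KO colon.

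Genes named are the 8 highest and 8 lowest called KO differences averaging 100 normalised reads or more and with 1 sign in all mice, the 10 most positive and 10 most negative called changes without overlap between mice, the 2 members of each list with the smallest p for either question, and 15 chosen genes, 100 in all. Further members are named as part of a list's count, and genes outside these are said to be chosen after their values were seen. The members and the 24 gene lists (403 genes, 397 tested) were chosen with earlier results of these data known. Some genes that the rule selects are not reported here by name, and they stay in the counts over lists and over all genes. Of the RefSeq promoter windows, 14670 matched a tested gene by symbol.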

Additional observations from a re-analysis of the deposited data

Results flagged for a closer look

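The change of the regional difference between KO and WT was called for 41 of the genes named by rule and reported here, by the test of the difference itself in limma, on the log2 scale. Positive changes, toward colon in KO, were 9.53 for S100a8, 7.73 for Clca4b, 6.96 for S100a9, 6.42 for Cxcl3, 6.12 for Reg3g, 5.73 for Cxcl5, 5.68 for Cxcl2, 5.63 for Slpi, 5.62 for Reg3b, 5.46 for Ces2f, 4.10 for Nos2, 3.58 for Tac1, 2.98 for Jchain, 2.72 for Mmp7, 2.20 for Ifit2, 2.10 for Lct and 1.53 for Nox1. Negative changes in genes of transport, digestion and metabolism were -4.65 for Sult1a1, -4.49 for Pck1, -3.96 for Slc30a10, -3.81 for Slc37a2, -3.66 for Hao2, -3.26 for Slc20a1, -3.25 for Cyp4b1, -3.11 for Clps, -2.66 for Slc10a2, -1.92 for Slc51a, -1.64 for Fabp2, -1.58 for Mep1a and -1.48 for Ppara. Negative changes in secreted, signalling and regulatory genes were -6.43 for Ang4, -6.10 for Mptx1, -4.52 for Prss23, -3.995 for Nov, -3.87 for Efna3, -2.73 for Chga, -2.62 for Clca1, -2.18 for Klk1, -1.57 for Irf7, -1.51 for Hoxb9 and -0.96 for Cdx1. These genes were named for large or significant changes, so their number says nothing about other genes.

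In 9 of the 97 genes named by rule and reported here, 1 of the 5 WT mice lay apart from the others by Dixon's test (critical value 0.71 for 5 mice), which chance gives in about 1 of 20 groups. Colon minus ileum in that mouse was 5.43 for Cxcl5 in mouse 72, -11.35 for Apoa4 in mouse 59, 4.78 for Slpi in mouse 59, 0.62 for Prss23 in mouse 73 and 3.80 for Efna3 in mouse 72. It was -5.08 for Reg3a in mouse 75, -1.46 for Mcm6 in mouse 75, -2.35 for Cldn15 in mouse 72 and 5.41 for Cldn8 in mouse 59. Groups of 3 KO mice are too small for this test.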

How the results depend on the processing

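The count of KO differences (9827) was 6269 without the mouse block, 2337 with the receptor covariate, 6520 at a mean of at least 100 normalised reads (chosen after seeing the data) and 5384 at 2-fold or more, and 5893 to 10842 with 1 mouse left out. The WT count (5615) was 2647 at 2-fold or more and 2789 with irradiated mice alone, and 4526 to 5974 with 1 mouse left out. The count of changes between KO and WT (784) was 204 without the mouse block, 1184 with quantile scaling, 1389 by DESeq2, 130 with irradiated WT mice alone and 399 with the covariate, and 209 to 1949 with 1 mouse left out. Kept differences (3892) were 2316 with irradiated WT mice alone, 1873 with the covariate, 1839 at 2-fold, and 3102 to 4413 with 1 mouse left out. Lost or reduced ones (310) were 96 without the block, 41 with irradiated WT mice, 181 with the covariate, 503 by DESeq2, 202 at 2-fold, and 85 to 427 with 1 mouse left out. New or enlarged ones (557) were 129 without the block, 854 with quantile scaling, 105 with irradiated WT mice, 248 with the covariate, 966 by DESeq2, and 154 to 1606 with 1 mouse left out. Opposite ones (83) were 23 without the block, 18 with irradiated and 52 with non-irradiated WT mice, 33 with the covariate, 22 at 2-fold, and 37 to 92 with 1 mouse left out. List members called (272 in KO and 67 for the change) were 232 to 279 and 32 to 80 with 1 mouse left out, and 26 for the change with irradiated WT mice. Of the 784, those called in colon (711) were 284 with irradiated WT mice, 300 with the covariate and 391 to 758 with 1 mouse left out, and those called in ileum 1 with the covariate and 0 to 0 with 1 mouse left out. The cause was not tested.

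Of 172 results of named genes, 148 were called, 99 of these kept the call under every alternative, and 33 lost it with the covariate. The signs below turned round, and among called results this was H2-DMa alone. With the covariate the KO difference was 0.55 for H2-DMa, 0.53 for Reg3b, 0.71 for Reg3g, 0.97 for Clca4a, 0.31 for Per3, 0.11 for Cry2 and 0.059 for Clock, and the change was 0.49 for Fabp6, -0.32 for Il10ra, 0.42 for Il22ra1 and 0.40 for Cry1. With 1 mouse left out, the lowest and highest changes were -1.24 and 0.30 for Hoxb13, -1.29 and 0.43 for Fabp6, -0.074 and 0.63 for Clca4a, -0.51 and 0.073 for Il22ra1, -0.34 and 0.024 for Cry1 and -0.022 and 0.26 for Arntl, and the KO differences -0.49 and 0.22 for Clca4a, -1.30 and 0.047 for Per1 and -0.72 and 0.57 for S100g. With irradiated WT mice alone the change was 0.17 for Fabp6 and 0.34 for Cry1. With quantile scaling the KO difference of Clca4a was 0.30 and the change of Cry1 0.087. Each group holds few mice, the WT group mixes irradiated and untreated mice, and receptor reads cannot be told apart from KO colon.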

Other observations

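The genes in this section were chosen after their values were seen. Among transcripts of epithelial calcium uptake, those of the channels were more colonic in KO and that of the carrier less so. Calcium uptake itself was not measured. Trpv6, the apical calcium channel, had 1521, 1730.4 and 1772 normalised reads in KO colon and 17.4, 15.6 and 4.7 in KO ileum, against 240.3, 132, 131, 372 and 138 in WT colon and 7.9, 16.4, 10.4, 28.3 and 24.0 in WT ileum. Every KO colon was above every WT colon, and the change of the regional difference was 3.64 ± 0.49 (limma, adjusted p = 0.00024). Its relative Trpv5 differed by 3.11 in KO and 0.05 in WT. S100g, the calcium carrier calbindin-D9k, differed by -0.20 in KO and 3.34 in WT (limma, adjusted p of the change = 0.00303), and the vitamin D receptor Vdr by -0.76 and 0.40 (adjusted p = 0.033). The Vdr change was not called without KO mouse 49 or 50, without WT mouse 59, 72 or 73 or with the receptor covariate.

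Some receptors, cytokines and secreted defence proteins became more colonic. Osmr, the receptor subunit for oncostatin M, had 1929, 1681 and 1756 normalised reads in KO colon and 45.4, 73.7 and 84.5 in KO ileum, against 97.9, 141, 80.3, 142 and 176 in WT colon and 50.7, 99.1, 75.3, 118 and 76.6 in WT ileum. The cytokine Il1a (4.63 in KO and 0.00 in WT), complement C3 (3.40 in KO and 0.33 in WT) and lactoferrin, Ltf (4.10 in KO and -0.29 in WT), changed in the same direction, with the C3 call lost without the mouse block. Relatives of Clca4b did so too, with Clca3b at 14052, 24656 and 15512 in KO colon and 2711, 2644 and 1836 in KO ileum, against 1485, 1082, 1728, 1185 and 1696 in WT colon and 2300.4, 2317, 3481, 2917 and 2384 in WT ileum, and with Clca3a1 (1.62 in KO and -0.85 in WT) and Clca3a2 (1.83 in KO and -0.67 in WT), where the Clca3a1 change was not called with the receptor covariate. Reads of such related genes may have been shared in counting. Guanylin, Guca2a, which drives fluid secretion, differed by -0.84 in KO and 1.45 in WT (limma, adjusted p of the change = 0.000158; not called without the mouse block), while Guca2b stayed ileal (-4.37 in KO and -5.68 in WT).

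Circadian output genes also changed. Dbp had 21.1, 20.8 and 23.7 normalised reads in KO colon and 140.2, 134 and 122 in KO ileum, against 708, 40.9, 52.2, 49.7 and 213 in WT colon and 329, 30.4, 46.5, 34.3 and 126 in WT ileum. The WT mice spread widely within each tissue, and the difference within a mouse was -2.54 in KO and 0.59 in WT. Tef (change of -2.33), Cipc (-0.60 in KO and 2.10 in WT), Nr1d2 (-1.15 in KO and 0.45 in WT), Per3 (-0.50 in KO and 1.56 in WT) and Cry2 (-0.56 in KO and 1.06 in WT) changed alike. The Cry2 change was not called without KO mouse 49 or 50 or with the receptor covariate, and the Nr1d2 change was not called with that covariate. Without the mouse block the changes of Dbp, Tef, Nr1d2, Per3 and Cry2 were not called. Nr1d1, Per1, Per2, Cry1, Arntl and Clock were not called. The hour of collection is not given in the labels used here, and its part was not tested.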
